A study of Mus musculus with 31 samples.

Results

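Natural killer (NK) cells that lack CIS were compared with wild-type (WT) NK cells after 24 h with TGFB1, over all autosomal genes expressed in the data. The 4 CIS knockout (CIS KO) and 4 WT libraries of that time point were taken by their labels from 31 libraries. Of 23975 autosomal genes in the count table, 9751 passed the low-count filter and were tested, and these are the genes described. Genes of the X and Y chromosomes, of mitochondrial DNA or without an autosomal place (524 tested) were left out of the counts.

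RNA was measured by sequencing in NK cells sorted from mice, innate lymphocytes with the ability to kill infected and tumour cells. The study crossed 3 genotypes (WT, CIS KO and TGFBRII KO) with 3 conditions (unstimulated, 4 h TGFB1 and 24 h TGFB1). Beside the 8 libraries compared, 4 unstimulated libraries of each of the WT and CIS KO genotypes were used to set the difference against that before TGFB1. The labels number the libraries as biological replicates. They do not give the strain, the age, the number of animals, how the knockouts were made or a culture without TGFB1 for 24 h. The p-values therefore measure the spread between these libraries, which may not be the spread between animals. Time in culture goes with TGFB1 in every change from the unstimulated state.

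CIS, the product of Cish, is a member of the SOCS family that cytokine receptors induce through STAT5 and that restrains interleukin 15 signalling in NK cells. TGF-β signals through a pair of receptor kinases to SMAD2 and SMAD3, which enter the nucleus with SMAD4. In NK cells it is known to slow division, to lower cytotoxic and activating programmes and to induce residency molecules such as CD103, the product of Itgae. In a dividing cell, genes of DNA replication are transcribed mainly through E2F factors and genes of mitosis mainly through promoters with CHR and CCAAT elements.

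Total counts ran from 590009 to 1403005 in the CIS KO and from 673239 to 898365 in the WT libraries at 24 h. Unstimulated, they ran from 392266 to 711659 in CIS KO and from 712432 to 1135104 in WT, so depth went with genotype there without overlap. CIS KO replicate 2 was the deepest library of the series. Against the other 3 libraries of its group, its median log2 ratio in CPM (TMM-scaled CPM, a count as a share of its library) was 0.41 for genes under 20 CPM and −0.32 for genes at 200 CPM or more. Some counts below are also given without CIS KO replicate 2. The overlaps with calls of other comparisons and the shares near Cish are given only with it. Sex-linked transcripts separated the genotypes: Xist was at 0 to 5.22 CPM in CIS KO and 115 to 183 CPM in WT, and the summed Y-linked genes were at 392 to 558 and 1.48 to 124 CPM, with WT replicate 2 highest in WT. The sex of the cells and the genotype cannot be told apart here. NK cell markers summed to 2992 to 5212 CPM in CIS KO and 3774 to 4693 CPM in WT, and Ncr1, Klrb1c, Eomes and Gzma were well detected. Itga2 of the same list did not pass the filter, at means of 0.34 CPM in CIS KO and 3.81 CPM in WT. Some B cell and myeloid genes (Ms4a1, Pax5, Igkc, Lyz2, S100a9) and Cd5 of T cells were at 0 in all 8 libraries. Other members of these lists were not: Ighm was at means of 121 CPM in CIS KO and 150 CPM in WT, Cd14 at 18.5 and 11.5 CPM and Cd68 at 12.5 and 9.23 CPM. Of the ILC2 and ILC3 list, Kit was at 151 and 190 CPM and Gata3 at 161 and 190 CPM. Summed T cell markers, several of which NK cells share, were at 824 to 973 and 856 to 927 CPM. Of the tested cell type markers, Ncr1 (NK, 1 of 12) and Itgax (myeloid, 1 of 3) were called lower in CIS KO and Epcam (epithelium, 1 of 4) higher, at 99.7 ± 8.32 CPM in CIS KO and 60.9 ± 11.3 CPM in WT (SD, n = 4). In the stroma and epithelium list Col1a2, Cdh5, Krt8 and Alb were at 0, Col1a1, Col3a1, Krt18 and Dcn had at most 4.32 CPM and Sparc at most 15.1 CPM in a library, while Pecam1 was at means of 249.7 and 259 CPM and Vim at 527 and 470.4 CPM in CIS KO and WT. The list summed to 763 to 964 CPM in CIS KO and 734 to 862 CPM in WT, and the myeloid list to 168 to 251 and 223 to 300 CPM, most of it Itgax. The part of other cells in these calls was not tested. Among 9 T cell, 1 B cell and 3 ILC2 or ILC3 markers, 0 were called by edgeR, DESeq2 or voom (at most 1 of a list under other alternatives), and 3, 1 and 0 had an unadjusted p under 0.05. In bulk RNA, fewer cells with a transcript and less of it per cell cannot be told apart.

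At an adjusted p under 0.05 (edgeR quasi-likelihood test, Benjamini-Hochberg over all genes tested), 219 autosomal genes were higher in CIS KO than in WT at 24 h (2.25% of those tested) and 101 were lower (1.04%). The median log2 difference over all tested genes was 0.01. It was 1.01 among the genes called higher and −0.65 among those called lower. Libraries of the groups did not overlap for 174 of the 219 and 86 of the 101, beside 6.7% of all tested genes. The lower genes depended on CIS KO replicate 2: without it 204 were called higher and 166 lower, and 209 of the 320 were among these calls. A fit of the 8 libraries alone, which takes the spread from these only, called 47 higher and 16 lower. The cause of the smaller count was not tested.

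Cish checked the labels. It lies on chromosome 9 of mm10 (chr9:107296659-107302784) and was at 50.9, 51.2, 56.1 and 47 CPM in the CIS KO libraries and 218, 180.2, 228 and 248 CPM in WT. Every CIS KO library was below every WT library, at about the same level among themselves. The log2 difference was −2.07 ± 0.13, adjusted p = 1.96e-13, and in unstimulated cells it was −2.66 ± 0.17, adjusted p = 7.09e-13. Transcripts of the gene were therefore counted in the knockout at 24 h, at 51.3 ± 3.74 CPM (SD, n = 4) against 25.2 ± 6.76 CPM unstimulated. WT Cish was at 218 ± 28.4 CPM at 24 h and 158 ± 21.6 CPM unstimulated. The RefSeq promoter window of Cish (GRCm38.p6, 250 bases before to 50 after the start) is shown because Cish is the targeted gene and a STAT5 target. Capitals mark the word TTCNNNGAA, the core that STAT factors bind, which 8.47% of all 27025 windows (1 for each gene) hold on either strand (the word is its own reverse complement). The Cish window holds it at 0 and 11 bases after the annotated start. Which bases the knockout lacks is not given in the sources used here.

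Cish chr9:107296409-107296708, plus strand: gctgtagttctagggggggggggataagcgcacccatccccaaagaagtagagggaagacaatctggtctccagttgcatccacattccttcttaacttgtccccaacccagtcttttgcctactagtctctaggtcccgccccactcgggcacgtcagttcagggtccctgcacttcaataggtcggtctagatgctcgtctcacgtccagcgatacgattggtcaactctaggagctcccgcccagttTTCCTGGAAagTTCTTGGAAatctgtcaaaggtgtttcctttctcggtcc

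**Figure D1:**
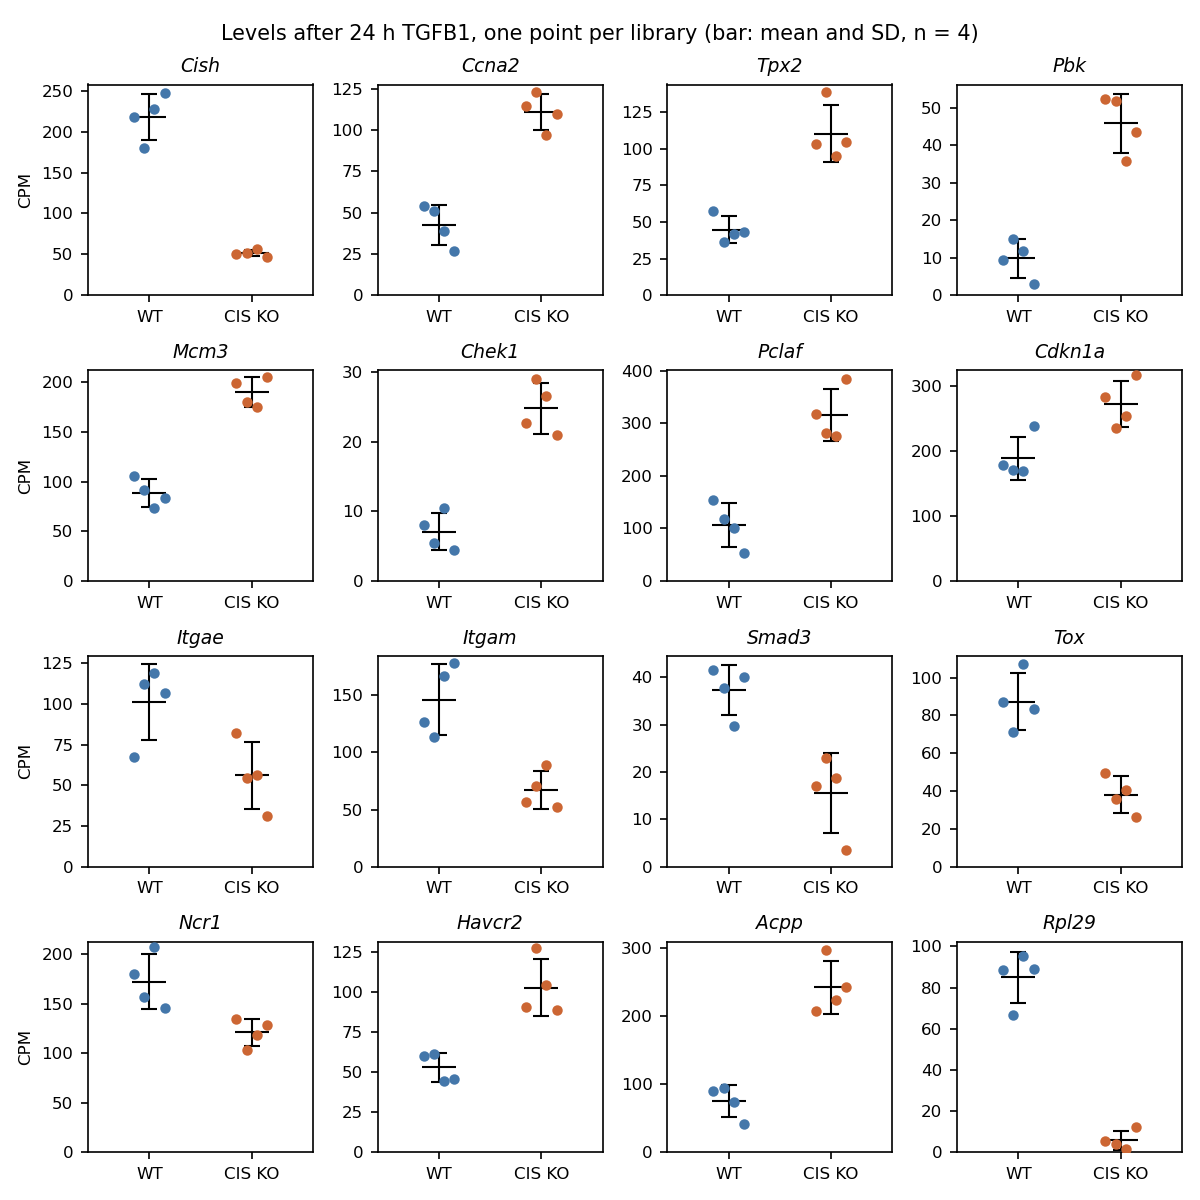
Level in CPM of 16 described genes in each library after 24 h TGFB1, WT in blue and CIS KO in orange, with black bars for the mean and SD (n = 4). Cish was at 180.2 to 248 CPM in WT and 47 to 56.1 CPM in CIS KO, while Ccna2 was at 26.7 to 53.7 and 96.7 to 123 CPM.

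Among the gene lists described, those of cell division had the most calls, all higher in CIS KO. Of 109 tested genes in lists of DNA replication, of mitosis and spindle and of G1 cyclins and CDKs, 56 were called higher and 0 lower, where 2.25% of all tested genes were called higher. They were 25.6% of all genes called higher at 24 h. In the mitosis list 33 of 47 genes were higher (median log2 difference 0.96), in the replication list 19 of 40 (median 0.73) and in the G1 list 4 of 22 (median 0.10). All 40 tested replication genes and 46 of the 47 mitosis genes had a positive difference. Leaving out CIS KO replicate 2 left 26 mitosis and 19 replication genes called, and the fit of 8 libraries alone called 14 and 5.

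**Figure D2:**
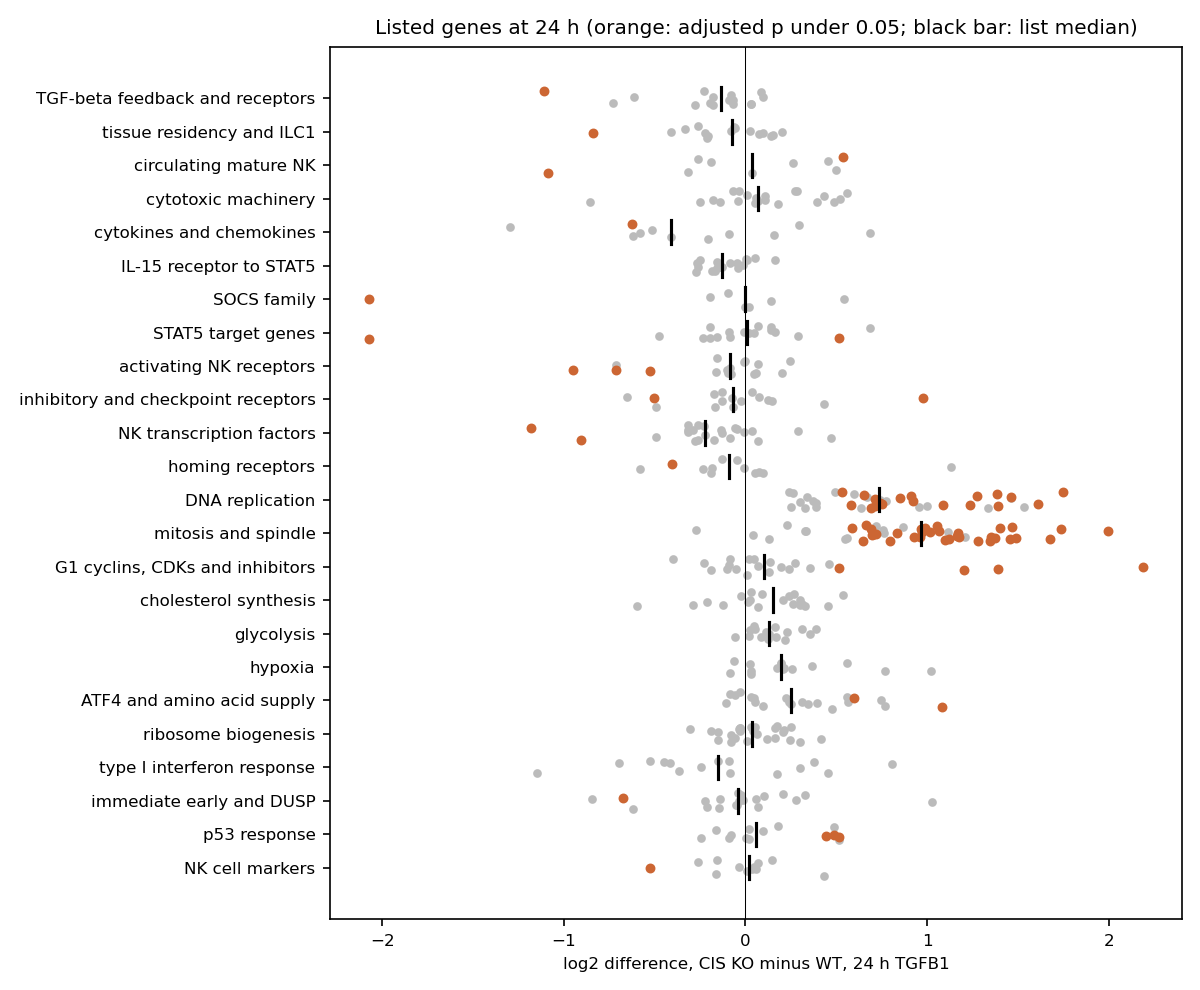
Log2 difference (CIS KO minus WT, 24 h TGFB1) of each tested gene of the described lists, orange where the adjusted p is under 0.05, with a black bar at the list median. The replication and mitosis lists lie to the right, with medians of 0.73 and 0.96, and the other list medians lie between −0.41 and 0.25.

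Replication genes with the firmest differences included helicase, nucleotide and chromatin genes. Pclaf, given with them, was not in the counted list. Mcm3, a subunit of the MCM helicase that opens DNA at origins, was at 199.5, 180.0, 175 and 205 CPM in the CIS KO libraries and 106, 91.7, 73 and 83.1 CPM in WT. The lowest CIS KO library was above the highest WT library, and the log2 difference was 1.09 ± 0.12, adjusted p = 2.71e-07. Pclaf, which encodes a partner of the sliding clamp PCNA, was at 318, 283, 276 and 385 CPM in the CIS KO libraries and 154, 119, 101 and 53.4 CPM in WT (1.54 ± 0.16, adjusted p = 6.80e-08). WT replicate 4 was the lowest library for Pclaf and CIS KO replicate 4 the highest. Rrm1 and Rrm2, the subunits of ribonucleotide reductase that makes DNA precursors, differed by 0.75 ± 0.13, adjusted p = 0.000441 and by 1.61 ± 0.30, adjusted p = 0.000877. Uhrf1, which carries DNA methylation through replication, differed by 1.24 ± 0.20, adjusted p = 0.000176.

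Some genes of large difference, outside the counted lists, act in DNA repair and its checkpoints, for which no list was counted. Chek1, the kinase of the replication checkpoint, was at 22.6, 29, 26.5 and 20.9 CPM in the CIS KO libraries and 8.06, 5.4, 10.4 and 4.45 CPM in WT (1.84 ± 0.31, adjusted p = 0.000296). No library of one group reached the range of the other. Brca1, which acts in homologous repair, was at 17, 24.3, 21.8 and 13.9 CPM in the CIS KO libraries and 12.1, 4.32, 2.98 and 2.97 CPM in WT (1.80 ± 0.37, adjusted p = 0.00256), with WT replicate 1 apart from the other 3 WT libraries. Exo1 and Dna2, nucleases that resect DNA, differed by 2.05 and 1.96 with adjusted p of 0.0366 and 0.0309, at means of 16.8 and 11.9 CPM in CIS KO. The call was lost in 6 of 18 alternatives for Exo1 and in 5 of 18 for Dna2, among them without CIS KO replicate 2, WT replicate 3 or WT replicate 4 for both.

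Mitotic genes covered cyclins, kinases, the spindle and condensin. Pbk and Ncapg2, given with them, were not in the counted list. Ccna2, the cyclin of S phase and mitotic entry, was at 115, 123, 96.7 and 109.7 CPM in the CIS KO libraries and 53.7, 50.7, 38.8 and 26.7 CPM in WT (1.38 ± 0.17, adjusted p = 1.32e-06). Pbk, a mitotic kinase, was at 52.4, 51.9, 35.9 and 43.5 CPM in the CIS KO libraries and 9.4, 15.1, 11.9 and 2.97 CPM in WT (2.18 ± 0.26, adjusted p = 1.32e-06). Tpx2, which activates Aurora A on the spindle, was at 103, 139, 95.1 and 104 CPM in the CIS KO libraries and 57.7, 36.7, 41.7 and 43 CPM in WT (1.35 ± 0.19, adjusted p = 1.20e-05). These genes did not overlap between groups, and their WT level was under 60 CPM in every library. Bub1, a kinase of the spindle checkpoint, differed by 2.00 ± 0.31, adjusted p = 7.49e-05, and Ncapg2, a subunit of condensin II, by 1.99 ± 0.25, adjusted p = 3.36e-06. Spc25 of the kinetochore differed by 1.28 ± 0.17, adjusted p = 6.20e-06 and Prc1, which bundles microtubules of the midzone, by 0.99 ± 0.18, adjusted p = 0.000656. Aspm, a protein of spindle poles, was at 56.6, 103, 57.7 and 64.4 CPM in the CIS KO libraries and 37.6, 45.3, 17.9 and 34.1 CPM in WT (1.12 ± 0.23, adjusted p = 0.00248). Its highest library was CIS KO replicate 2, and without that library its call was lost.

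In the G1 list the higher genes were the transcription factors E2f8 (2.19 ± 0.45, adjusted p = 0.00254) and E2f2 (1.39 ± 0.31, adjusted p = 0.00659), the kinase Cdk6 (1.20 ± 0.31, adjusted p = 0.0218) and the inhibitor Cdkn1a (0.52 ± 0.11, adjusted p = 0.00481). E2f8 represses E2F targets and is itself made in S phase. Cdk6 overlapped between groups, at 43.9, 46.5, 29.6 and 6.96 CPM in the CIS KO libraries and 18.8, 12.9, 20.9 and 7.42 CPM in WT, and its call was lost in 8 of 19 alternatives. Cdk1, the kinase of mitotic entry, was at 132, 99.8, 120.1 and 176 CPM in the CIS KO libraries and 73.9, 74.5, 62.6 and 47.5 CPM in WT (0.96 ± 0.15, adjusted p = 6.16e-05). Cdkn1a encodes p21, which inhibits cyclin-dependent kinases, so it has the opposite role to most genes that were higher.

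The promoters of 3 of these genes are shown because their windows hold the words named above. They were chosen for holding them, from RefSeq windows of GRCm38.p6 that span 250 bases before to 50 after the start. Capitals mark E2F words (TTTCCCGC, TTTGGCGC, TTTCGCGC or TTTGCCGC), the CHR word TTTGAA and CCAAT, on either strand. The words do not overlap one another in these windows.

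Cdk1 chr10:69352863-69353162, minus strand: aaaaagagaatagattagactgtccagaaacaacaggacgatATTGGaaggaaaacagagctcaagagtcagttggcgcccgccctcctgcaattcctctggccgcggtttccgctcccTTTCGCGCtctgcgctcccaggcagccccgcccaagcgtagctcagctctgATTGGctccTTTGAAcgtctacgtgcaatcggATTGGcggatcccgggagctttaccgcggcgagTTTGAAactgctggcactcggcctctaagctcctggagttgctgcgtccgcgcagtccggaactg
Aspm chr1:139454523-139454822, plus strand: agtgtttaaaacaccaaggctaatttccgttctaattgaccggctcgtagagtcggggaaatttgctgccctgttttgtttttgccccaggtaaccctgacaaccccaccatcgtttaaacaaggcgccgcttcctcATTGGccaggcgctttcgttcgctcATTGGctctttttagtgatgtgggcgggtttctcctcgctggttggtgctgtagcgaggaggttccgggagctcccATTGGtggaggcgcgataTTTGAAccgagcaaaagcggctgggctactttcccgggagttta
Mcm3 chr1:20820263-20820562, minus strand: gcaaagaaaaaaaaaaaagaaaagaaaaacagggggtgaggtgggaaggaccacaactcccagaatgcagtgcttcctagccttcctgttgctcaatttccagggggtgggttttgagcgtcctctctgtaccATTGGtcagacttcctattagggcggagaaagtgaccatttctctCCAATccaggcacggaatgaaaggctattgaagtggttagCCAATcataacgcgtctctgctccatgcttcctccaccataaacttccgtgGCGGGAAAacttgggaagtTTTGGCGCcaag

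Cdk1 holds 1 E2F word, 2 CHR words and 3 CCAAT words, Aspm 1 CHR word and 3 CCAAT words, and Mcm3 2 E2F words and 3 CCAAT words. Over the mitosis list, 39 of 47 tested genes had a window, of which 74.4% held the CHR word and 74.4% CCAAT. All 27025 windows held them in 18.1% and 37.9%. Over the replication list, 33 of 40 had a window, of which 33.3% held an E2F word, beside 2.32% of all windows, and 15.2% the CHR word. Of the tested genes, 7757 of 9751 had a window (79.6%), and of these 4.6% held an E2F word, 12% the CHR word and 39% CCAAT. The list names chose these genes, so the shares describe the lists and not the difference between genotypes. Among the 98 windows of 119 genes whose response to TGFB1 differed upward between the genotypes, 39.8% held the CHR word, 65.3% CCAAT and 16.3% an E2F word. A word is a match of letters and not a site shown to be bound.

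Most cell division genes did not have a positive difference before TGFB1. In unstimulated cells, 35 of the 109 genes had a positive difference, none was called higher in the replication or mitosis list, and 3 mitosis genes were called lower (medians −0.04 and −0.24). Of all tested genes, 3.02% were called higher there and 3.02% lower. These 588 calls fell to 64 with total count as a term and to 50 without WT replicate 3. In the G1 list Cdkn1a was called higher and Ccnd3 lower. The response difference, (CIS KO 24 h minus unstimulated) minus (WT 24 h minus unstimulated), was called for 132 autosomal genes (1.35% of those tested). Of these, 119 were higher (1.22%) and 13 lower (0.133%). Without CIS KO replicate 2 at 24 h, 66 were higher and 5 lower. Without CIS KO unstimulated replicate 4 the total was 200. With total count as a term in the fit it was 54, and with a replicate block within genotype 67. The 3 cell division lists held 46 of the 119 (38.7%), with 32 of 47 mitosis and 12 of 40 replication genes. Set against unstimulated cells of the same genotype, 46 of 47 mitosis genes were called lower in WT at 24 h (median −1.99), where 11.5% of all tested genes were, and 37 in CIS KO (median −0.69), where 11.7% were. For replication genes the counts were 38 of 40 (median −1.25) and 25 (median −0.48). These comparisons share libraries with the genotype comparison. The response difference was 1.62 ± 0.21, adjusted p = 1.66e-05 for Ccna2, 1.88 ± 0.24, adjusted p = 1.65e-05 for Tpx2, 2.51 ± 0.32, adjusted p = 1.65e-05 for Pbk and 1.05 ± 0.16, adjusted p = 0.000219 for Mcm3.

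Summed over the mitosis list, WT was at 6760 to 8300 CPM unstimulated, 5783 to 6242 CPM at 4 h (2 libraries) and 1994 to 3021 CPM at 24 h. CIS KO was at 6172 to 6888, 3796 to 4817 and 3831 to 4634 CPM. So the summed level was lower in every CIS KO library than in either WT library at 4 h and higher in every CIS KO library at 24 h. The 4 h genotype comparison called 1 of 47 mitosis genes lower and 0 higher (median −0.58), where 8 genes of all tested were called higher (0.082%) and 13 lower (0.133%), and the change of the difference from 4 h to 24 h was not tested. The replication list had the same order, at 3360 to 3481 CPM in WT and 2862 to 3055 CPM in CIS KO at 4 h, then 1709 to 2268 and 2902 to 3463 CPM at 24 h. CIS KO at 24 h stayed below its own unstimulated libraries, at 4041 to 4724 CPM for replication. It was also below cells without the TGF-β receptor at 24 h, which were at 3886 to 4393 CPM for replication and 7484 to 8382 CPM for mitosis.

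**Figure D3:**
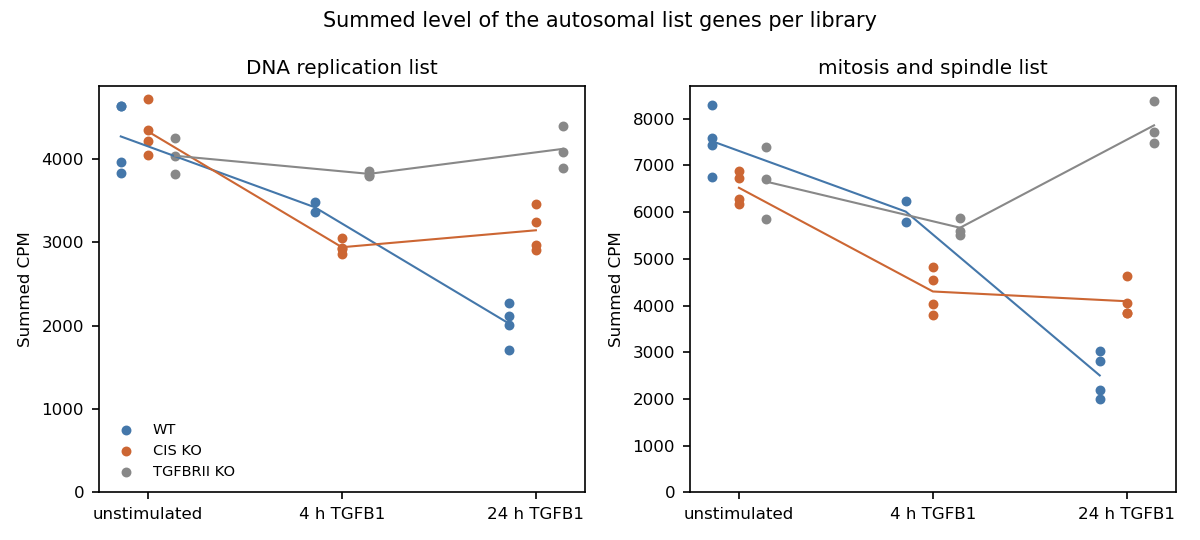
Summed CPM of the replication and mitosis lists in each library by condition, WT in blue, CIS KO in orange and TGFBRII KO in grey, with lines through the group means. At 24 h the WT libraries lie lowest (1994 to 3021 CPM for mitosis), CIS KO between (3831 to 4634) and TGFBRII KO highest (7484 to 8382).

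Outside cell division, genes of the TGF-β programme mostly did not pass the test. Of 16 tested TGF-β receptor and feedback genes, 1 was lower in CIS KO and 0 higher (median −0.13), and 11 were called higher at 24 h than unstimulated in WT and 10 in CIS KO, where 9.75% and 12.6% of all tested genes were. The lower gene was Smad3, the receptor-regulated SMAD, at 17, 22.9, 18.7 and 3.48 CPM in the CIS KO libraries and 41.6, 37.8, 29.8 and 40.1 CPM in WT (−1.11 ± 0.30, adjusted p = 0.0279). CIS KO replicate 4 was far below the others, and the call was lost in 8 of 19 alternatives, among them without that library. Smad3 was lower before TGFB1 too (−1.25 ± 0.27, adjusted p = 0.00866). Ski, a repressor of SMAD activity, was at 468, 394, 471 and 459.6 CPM in the CIS KO libraries and 513, 438, 529 and 545 CPM in WT, with a log2 difference of −0.18 ± 0.09, adjusted p = 0.394. Tgfbr3, the co-receptor betaglycan, was at 5.66, 14.2, 7.8 and 10.4 CPM in the CIS KO libraries and 6.71, 25.9, 14.9 and 19.3 CPM in WT (−0.73 ± 0.42, adjusted p = 0.455). Among genes that WT cells changed at 4 h, in libraries not used at 24 h, 681 were called higher at 4 h (6.98% of those tested), and 10 of these were higher and 14 lower in CIS KO at 24 h (3.52% called, against 3.28% of all tested genes). Of the 491 called lower at 4 h (5.04%), 34 were higher and 17 lower (10.4%). Cell division genes were not removed from these 4 h sets. The WT 4 h group has 2 libraries, and that of replicate 1, at 297561 counts, is the shallowest of the series.

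In the tissue residency list, 1 of 16 genes was lower and 0 higher (median −0.07), where 1.04% and 2.25% of all tested genes were. It was Itgae, the αE integrin CD103 that holds cells in epithelium, at 82.1, 54.6, 56.1 and 31.3 CPM in the CIS KO libraries and 67.1, 112, 119 and 107 CPM in WT (−0.84 ± 0.21, adjusted p = 0.0185). CIS KO replicate 1 and WT replicate 1 overlapped. Itgae was at 4.36 ± 2.36 CPM in unstimulated WT and 3.73 ± 2.49 CPM in unstimulated CIS KO (SD, n = 4), so it was far higher at 24 h in both genotypes. Its response difference was −0.66 ± 0.74, adjusted p = 0.7, and the 24 h call was lost in 8 of 19 alternatives. Ahr, a ligand-activated factor of resident lymphocytes, was at 80.7, 116, 98.2 and 62.7 CPM in the CIS KO libraries and 85.9, 119.8, 127 and 165 CPM in WT (−0.41 ± 0.18, adjusted p = 0.261).

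In the circulating mature NK list 1 of 9 genes was higher in CIS KO and 1 lower, and in the homing list 1 of 12 was lower. Of all tested genes, 2.25% were called higher and 1.04% lower. Itgam, the αM chain CD11b of mature NK cells, was at 56.6, 70.8, 88.9 and 52.2 CPM in the CIS KO libraries and 126, 113, 167 and 178 CPM in WT (−1.09 ± 0.16, adjusted p = 3.33e-05). The groups did not overlap, and the response difference was −0.87 ± 0.23, adjusted p = 0.0399. Unstimulated Itgam differed by −0.21 ± 0.16, adjusted p = 0.403. Itgb2, the lower gene of the homing list and the β2 chain that pairs with Itgam, was at 126, 108, 117 and 134 CPM in the CIS KO libraries and 172, 140.3, 159 and 165 CPM in WT (−0.41 ± 0.11, adjusted p = 0.0264), with a response difference of −0.69 ± 0.15, adjusted p = 0.00653. Its 24 h call was lost in 9 of 19 alternatives. Ly6c2, another mature NK marker, was higher (0.54 ± 0.15, adjusted p = 0.0439) but its groups overlapped and the call was lost in 13 of 19 alternatives.

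Receptors and transcription factors of NK cells changed in small numbers and mostly downward. Of 17 activating receptors, 3 were lower and 0 higher, where 1.04% of all tested genes were called lower and 2.25% higher. In the fit of 8 libraries alone 1 was called lower, and the calls of Ncr1 and Cd27 were lost. That of Cd27 was also lost without replicate 2 of both groups. Ncr1, the activating receptor NKp46, was at 134, 103, 118 and 129 CPM in the CIS KO libraries and 179.9, 156, 207 and 145 CPM in WT (−0.53 ± 0.11, adjusted p = 0.0024). Crtam, an adhesion receptor that promotes killing, was at 49.5, 42.5, 29.6 and 33.1 CPM in the CIS KO libraries and 59.1, 73.4, 93.9 and 83.1 CPM in WT (−0.95 ± 0.19, adjusted p = 0.00164), and Cd27, a co-stimulatory receptor of less mature NK cells, differed by −0.71 ± 0.16, adjusted p = 0.00661. All 4 CIS KO libraries were below all 4 WT libraries for each of the 3. The same held for 86 of the 101 genes called lower, so it adds little to the call. Of all tested genes, 6.7% had no overlap in either direction. Of 16 inhibitory and checkpoint receptors, Havcr2 was higher and Klra1 lower. Havcr2, the checkpoint receptor TIM-3, was at 90.6, 127, 104 and 88.8 CPM in the CIS KO libraries and 60.4, 61.5, 44.7 and 46 CPM in WT (0.98 ± 0.16, adjusted p = 0.000176), with no overlap. Klra1, a Ly49 receptor whose reads may be shared with close paralogs, differed by −0.51 ± 0.12, adjusted p = 0.00848. Its call was lost without WT replicate 3 and in the fit of 8 libraries alone.

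Of 23 NK transcription factors, 2 were lower and 0 higher (median −0.23), where 1.04% and 2.25% of all tested genes were. Tox, needed for NK cell development, was at 49.5, 35.7, 40.5 and 26.1 CPM in the CIS KO libraries and 87.3, 71.2, 107 and 83.1 CPM in WT (−1.18 ± 0.22, adjusted p = 0.00129). The CIS KO libraries were all below 50 CPM and the WT libraries all above 70 CPM, and unstimulated Tox differed by −0.97 ± 0.22, adjusted p = 0.0135. Irf4, a factor of activated lymphocytes, differed by −0.91 ± 0.24, adjusted p = 0.0491 at low levels, and its call was lost in 13 of 19 alternatives. Tbx21, which encodes T-bet, differed by −0.26 ± 0.13, adjusted p = 0.333, and Ikzf1 by −0.28 ± 0.09, adjusted p = 0.0798. Of the cytokine list, Ltb was lower (−0.62 ± 0.18, adjusted p = 0.0429), 1 of 11 genes. Ltb was at 96.2, 49.2, 95.1 and 97.5 CPM in the CIS KO libraries and 171, 95, 112 and 113 CPM in WT, and its call was lost in 8 of 19 alternatives, among them without CIS KO replicate 2. Ccl3 and Ccl5, chemokines that NK cells secrete, differed by −0.58 ± 0.17, adjusted p = 0.053 and by −0.52 ± 0.18, adjusted p = 0.124.

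The interleukin 15 pathway that CIS restrains showed no called gene, where 3.28% of all tested genes were called. At that share a list of 18 genes may hold no call. Among 18 tested genes from the interleukin 15 receptor to STAT5, 0 were called by edgeR (median −0.13), by DESeq2 or by voom, and 3 had an unadjusted p under 0.05. The members with the smallest p were Ptpn11 (−0.27 ± 0.09, adjusted p = 0.11), Stat4 (−0.27 ± 0.11, adjusted p = 0.197), Pik3r1 (−0.25 ± 0.10, adjusted p = 0.213) and Jak3 (−0.26 ± 0.14, adjusted p = 0.413). At most 1 gene of the list was called under any alternative. Of 7 SOCS genes Cish alone was called, and Socs1 and Socs2 differed by 0.14 ± 0.19, adjusted p = 0.823 and by −0.20 ± 0.14, adjusted p = 0.589. Of 18 STAT5 target genes, Cish was lower and Cdkn1a higher. Nfil3 of that list differed by 0.29 ± 0.12, adjusted p = 0.198.

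Cytotoxic genes also had no call, with 0 of 21 by edgeR (median 0.07), DESeq2 or voom and 5 at an unadjusted p under 0.05. Prf1, which encodes perforin, was at 157, 117, 74.8 and 88.8 CPM in the CIS KO libraries and 79.2, 59.4, 87.9 and 108 CPM in WT (0.43 ± 0.18, adjusted p = 0.219). Gzme and Gzmf, granzymes whose close copies may share reads, differed by 0.56 ± 0.21, adjusted p = 0.165 and by 0.52 ± 0.21, adjusted p = 0.199. Cytotoxic genes called higher numbered 5 with total count as a term, 4 with no low-count filter and 1 without CIS KO replicate 2. In unstimulated cells 6 of the 21 were called higher in CIS KO, where 3.02% of all tested genes were, and the unstimulated calls over all genes ran from 50 to 1041 with 1 library left out. Cholesterol synthesis (0 of 20), glycolysis (0 of 16), hypoxia (0 of 15), ribosome biogenesis (0 of 27) and type I interferon genes (0 of 15) had no call at 24 h, nor had oxidative phosphorylation (0 of 26) and the BCL2 family (0 of 15), by edgeR, DESeq2 or voom. At an unadjusted p under 0.05 there were 7, 0, 4, 4, 3, 0 and 1 genes in these lists in that order. Under other alternatives up to 2 cholesterol, hypoxia or interferon genes were called in a direction. Over all tested genes 3.28% were called and 1441 had an unadjusted p under 0.05. Examples are Pmvk of cholesterol synthesis (0.45 ± 0.13, adjusted p = 0.0553), Egln3 of the hypoxia response (1.02 ± 0.32, adjusted p = 0.079) and Irf7 of the interferon response (−0.70 ± 0.21, adjusted p = 0.0564).

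Some p53 targets and genes of amino acid supply were called higher. Of 14 p53 targets 3 were higher, where 2.25% of all tested genes were called higher and 1.04% lower. The fit of 8 libraries alone called 0 of them higher. Cdkn1a was at 283, 236, 254 and 317 CPM in the CIS KO libraries and 179, 170.5, 169.9 and 239 CPM in WT (0.52 ± 0.11, adjusted p = 0.00481), where WT replicate 4 lay inside the CIS KO range. Ccng1, an atypical cyclin, differed by 0.45 ± 0.08, adjusted p = 0.00124 and Phlda3, an inhibitor of AKT, by 0.48 ± 0.14, adjusted p = 0.0446, a call lost in 16 of 19 alternatives. Cdkn1a and Ccng1 were higher in unstimulated CIS KO as well (0.66 ± 0.11, adjusted p = 0.00114 and 0.42 ± 0.08, adjusted p = 0.00518). Of 21 genes of amino acid supply and ATF4, Shmt1 and Mthfd2, enzymes of one-carbon metabolism, were higher (1.08 ± 0.26, adjusted p = 0.0118 and 0.60 ± 0.11, adjusted p = 0.00114). In the immediate early list 1 of 20 was lower, Dusp7 (−0.67 ± 0.18, adjusted p = 0.0292), a phosphatase of ERK that lies near Cish. Its call was lost in 9 of 19 alternatives, and that of Shmt1 without WT replicate 4 and in the fit of 8 libraries alone.

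Other genes with the largest differences had mixed roles. Acvrl1, which encodes the TGF-β family type I receptor ALK1, had 33 counts over the CIS KO libraries and 1 over the WT libraries, a CPM ratio of 29.2 with a 95% counting interval of 4.89 to 1189. It was at 14.2, 11.5, 4.68 and 5.22 CPM in the CIS KO libraries and 0, 1.08, 0 and 0 CPM in WT. Unstimulated, it was at 27.3 ± 3.27 CPM in CIS KO and 8.26 ± 4.96 CPM in WT (SD, n = 4), and the response difference was 2.69 ± 0.92, adjusted p = 0.165. Mgmt, a DNA repair methyltransferase, was at 34, 23.6, 34.3 and 20.9 CPM in the CIS KO libraries and 8.06, 9.71, 8.94 and 4.45 CPM in WT (1.79 ± 0.32, adjusted p = 0.000603) and was higher before TGFB1 too (1.33 ± 0.31, adjusted p = 0.013). Zik1, a zinc finger gene, and Pask, a PAS domain kinase, differed by 2.65 ± 0.58, adjusted p = 0.00484 and by 1.74 ± 0.38, adjusted p = 0.00508. Tmem40 and Lrr1 were higher by 2.15 and 2.08 at under 17 CPM, calls lost in 4 and 13 of 18 alternatives.

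The largest differences downward included genes of lymphocyte signalling. Sla, an adaptor that dampens antigen receptor signalling, was at 21.2, 24.9, 20.3 and 19.1 CPM in the CIS KO libraries and 55.1, 43.2, 56.6 and 54.9 CPM in WT (−1.22 ± 0.17, adjusted p = 1.05e-05). Rasgrp2, an activator of Rap1 in integrin signalling, was at 7.08, 6.74, 14 and 6.96 CPM in the CIS KO libraries and 24.2, 21.6, 22.4 and 20.8 CPM in WT (−1.40 ± 0.29, adjusted p = 0.00254). Matk, a kinase that inhibits Src kinases, was at 24.1, 19.6, 21.8 and 24.4 CPM in the CIS KO libraries and 64.5, 51.8, 47.7 and 26.7 CPM in WT (−1.11 ± 0.28, adjusted p = 0.0182), and at 4.53 ± 0.889 and 1.38 ± 1.6 CPM in unstimulated WT and CIS KO. St3gal1, a sialyltransferase, and Zfp831 differed by −1.19 ± 0.29, adjusted p = 0.0136 and by −1.21 ± 0.31, adjusted p = 0.0199. Mgst2, Ica1, Tlr12 and Myl10 were lower by log2 differences of −1.02, −1.11, −1.46 and −2.27. The call was lost in 14 of 18 alternatives for Ica1, in 7 of 18 for Tlr12 and in 6 of 19 for Matk, among them without CIS KO replicate 2 for each. It was lost for St3gal1 without CIS KO replicate 1, and for Zfp831 without CIS KO replicate 4 or WT replicate 4. Cd300lf, an inhibitory receptor, had 2 counts in CIS KO and 16 in WT, a WT to CIS KO ratio of 9.03 (95% counting interval 2.12 to 81).

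Genes lower at 24 h were often lower before TGFB1, in libraries that the 24 h comparison does not use. Of the 101, 39 (38.6%) were among the 294 called lower in unstimulated CIS KO (13.3% of those), where 3.02% of all tested genes were called lower, and 0 were among the 294 called higher. Of the 219 higher genes, 24 (11%) were among the 294 called higher (8.16% of those), and 4 were called lower. Tox, Smad3, Sla, Mgst2 and St3gal1 were of the first kind. The unstimulated calls, 588 in all (6.03%), ranged from 50 without WT replicate 3 to 1041 without CIS KO replicate 4, so the shares rest on those libraries. With total count as a term the unstimulated calls numbered 64.

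**Figure D4:**
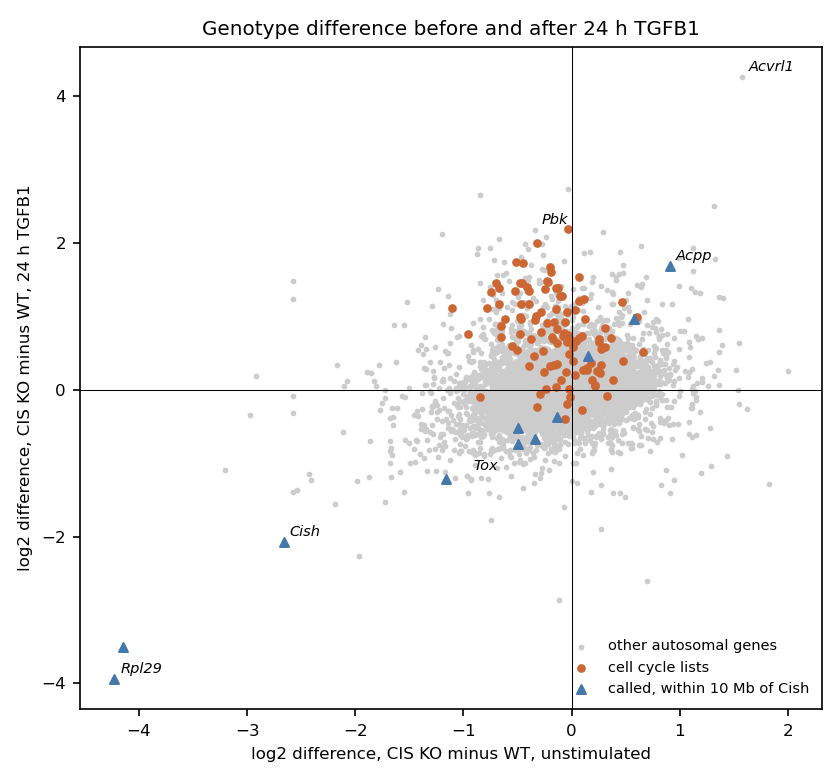
Log2 difference between CIS KO and WT at 24 h TGFB1 (vertical) against that in unstimulated cells (horizontal) for each tested autosomal gene. Cell division genes (orange) lie above 0 at 24 h in 101 of 109 cases but right of 0 in 35, while called genes within 10 Mb of Cish (blue triangles, Cish included) keep their direction.

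The share of genes called near Cish on chromosome 9 was above that of all tested genes, a difference that was not tested. Within 1 Mb of its start 5 of 35 tested genes were called (14.3%), all lower, within 10 Mb 10 of 131 (7.63%) and within 20 Mb 13 of 212 (6.13%), Cish left out, beside 3.28% of all tested genes. In unstimulated cells the shares were 14.3%, 9.16% and 8.02% beside 6.03%, and 7 of the 10 genes called within 10 Mb were called in the same direction there. Rpl29, a ribosomal protein gene at chr9:106428889-106431568, was at 5.66, 4.05, 1.56 and 12.2 CPM in the CIS KO libraries and 88.6, 66.9, 95.4 and 89 CPM in WT (−3.94 ± 0.33, adjusted p = 3.64e-10). It has processed copies elsewhere in the genome that could share its reads. The gene 6430571L13Rik, at chr9:107340640-107349683, was at 2.83, 2.02, 1.56 and 1.74 CPM in the CIS KO libraries and 29.5, 23.7, 25.3 and 22.3 CPM in WT (−3.51 ± 0.47, adjusted p = 9.71e-06). Their unstimulated log2 differences were −4.23 and −4.14.

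Next to Cish, Mapkapk3, a kinase downstream of p38 at chr9:107254927-107289877, was at 130.2, 103, 120.1 and 164 CPM in the CIS KO libraries and 223, 187, 219 and 209 CPM in WT (−0.73 ± 0.11, adjusted p = 4.94e-05). Acpp, an acid phosphatase gene whose start lies −3.01 Mb from that of Cish, was at 207, 296, 223 and 242 CPM in the CIS KO libraries and 90, 93.9, 74.5 and 41.5 CPM in WT (1.69 ± 0.16, adjusted p = 1.83e-08). It was higher before TGFB1 as well (0.91 ± 0.18, adjusted p = 0.00584). Gpd1l was higher (0.97 ± 0.14, adjusted p = 3.75e-05) and Glb1, the lysosomal galactosidase, lower (−0.52 ± 0.11, adjusted p = 0.0037), both with the same direction unstimulated (0.58 and −0.49). Differences that come with the targeted locus and differences that follow the loss of CIS cannot be told apart here.

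**Figure D5:**
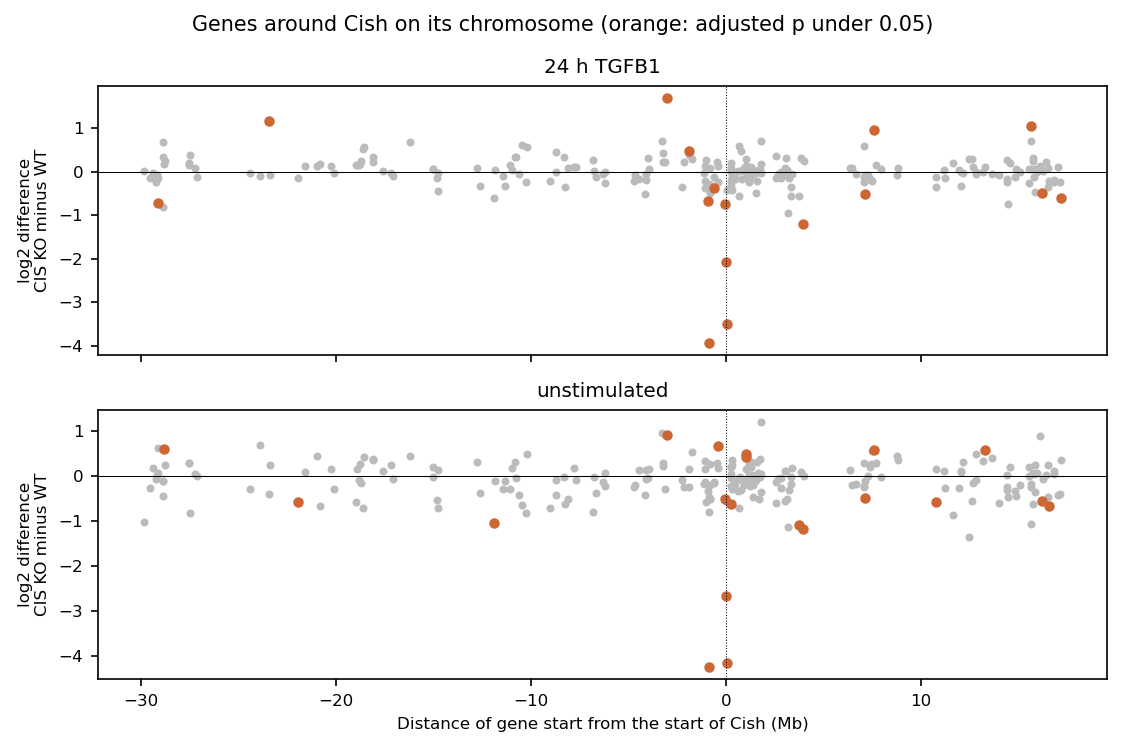
Log2 difference between CIS KO and WT of tested genes by the distance of their start from that of Cish in Mb, at 24 h TGFB1 (top) and unstimulated (bottom), orange where the adjusted p is under 0.05. The lowest points at both times are Rpl29, 6430571L13Rik and Cish.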

How the data were processed

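Sequencing gave 31 libraries from sorted mouse NK cells, and the authors deposited raw counts per Entrez gene in 1 table. FastQC, Trimmomatic, Subread, featureCounts, Picard and SAMtools and the build mm10 are named, without versions or roles, per the submitters' processing notes. The sources used here do not state the strand setting or how duplicates were handled. Symbols and places came from RefSeq (GRCm38.p6) for 25275 of 27179 identifiers, and the other 1904 held 0.958% of the counts.

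Counts were filtered by filterByExpr on the 9 groups (10275 genes left), scaled by TMM and fitted over all 31 libraries with edgeR 4.0.16 in R 4.3.3. Each contrast had a quasi-likelihood F-test, p-values were adjusted by Benjamini-Hochberg across the 10275 genes, and a call means an adjusted p under 0.05. Interaction contrasts gave the response differences. Values are log2 difference ± standard error. CPM use TMM library sizes and are listed by replicate number (1 to 4). The scripts were tested on simulated data. Total counts of 297561 to 1403005 per library limit the precision for low genes, and counting intervals cover counting error only. Replicate numbers did not pair CIS KO with WT libraries at 24 h (correlations of same-numbered libraries from −0.22 to 0.23). Pairing within a genotype was not settled.

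Members, the 33 gene lists (31 with a tested autosomal gene) and tests were chosen with earlier results of these data known. Named genes were Cish, 15 called genes per direction ranked by size of change (libraries not overlapping, mean of at least 5 CPM in the higher group, no unnamed gene models), up to 4 genes of each described list by smallest p, called genes within 10 Mb of Cish (up to 8) and the 10 smallest p of the response difference. Cell type markers that were called or at 0 were named after their values were seen. A gene that the rule names is not reported here. Alternatives were RLE scaling, library size alone, other filters, DESeq2 1.42.0, voom with limma 3.58.1, only the libraries compared, a replicate block, total count as a term and leaving out libraries.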

Additional observations from a re-analysis of the deposited data

Results flagged for a closer look

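In groups of 4 libraries at 24 h, a library was listed when its gap to the nearest other was a larger share of the range than chance usually gives. Chance does so in about 1 in 20 groups, and 15 of 246 groups of named genes were listed. CIS KO replicate 2, the deepest library, stood apart most often. Pask was at 24.3 CPM in CIS KO replicate 2 and 15.6 to 17 CPM in the other 3. Aspm was at 103 CPM in CIS KO replicate 2 and 56.6 to 64.4 CPM in the other 3. Ski was at 394 CPM in CIS KO replicate 2 and 459.6 to 471 CPM in the other 3. Ltb was at 49.2 CPM in CIS KO replicate 2 and 95.1 to 97.5 CPM in the other 3. Irf7 was at 38.4 CPM in CIS KO replicate 2 and 24.9 to 26.9 CPM in the other 3. Cd300lf was at 1.35 CPM in CIS KO replicate 2 and 0 in the other 3. WT replicate 4 stood apart for 3 genes. Shmt1 was at 7.42 CPM in WT replicate 4 and 14.9 to 16.2 CPM in the other 3. Trib3 was at 74.2 CPM in WT replicate 4 and 28.3 to 33.6 CPM in the other 3. Cdkn1a was at 239 CPM in WT replicate 4 and 169.9 to 179 CPM in the other 3. The others were spread over libraries. Acvrl1 was at 1.08 CPM in WT replicate 2 and 0 in the other 3. Brca1 was at 12.1 CPM in WT replicate 1 and 2.97 to 4.32 CPM in the other 3. Cd200r1 was at 95.4 CPM in WT replicate 3 and 69.8 to 73.4 CPM in the other 3. Sla was at 43.2 CPM in WT replicate 2 and 54.9 to 56.6 CPM in the other 3. Rasgrp2 was at 14 CPM in CIS KO replicate 3 and 6.74 to 7.08 CPM in the other 3. Myl10 was at 0 CPM in CIS KO replicate 4 and 2.7 to 3.12 CPM in the other 3.

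The responses of CIS KO and WT to 24 h TGFB1 differed for 132 autosomal genes by the interaction test. Among the named genes the log2 response difference was 3.50 for Zik1, 2.23 for E2f8, 2.51 for Pbk, 2.72 for Exo1, 2.32 for Bub1, 2.26 for Ncapg2 and 2.10 for Chek1. It was 2.28 for Brca1, 2.36 for Pask, 1.80 for Rrm2, 1.34 for Pclaf, 2.06 for E2f2, 1.62 for Ccna2 and 1.88 for Tpx2. It was 1.36 for Spc25, 1.12 for Uhrf1, 1.91 for Aspm, 1.05 for Mcm3, 1.47 for Prc1, 0.83 for Cdk1 and 0.78 for Rrm1. Downward it was −0.69 for Itgb2 and −0.87 for Itgam.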

How the results depend on the processing

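The 24 h comparison called 320 genes, and in all 227 to 370 with 1 library left out, 63 in the fit of 8 libraries, 573 with total count as a term and 212 by DESeq2, while RLE scaling, library size alone, both other filters (one of which, 10 CPM in 4 libraries, kept more genes than the main filter) and voom gave 301 to 392. Higher calls (219) ran from 152 to 229 with 1 library left out and fell to 47 in the fit of 8 libraries. Lower calls (101) ran from 70 to 166, with 16 in that fit, 257 with total count as a term (55.1% of calls then being higher, against 68.4%) and 56 by DESeq2. The fit of 8 libraries has fewer samples and takes the spread from these alone. The same restriction raised the unstimulated calls from 588 to 1040. The cause was not tested.

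The response difference (132) ran from 71 without CIS KO 24 h replicate 2 to 200 without CIS KO unstimulated replicate 4, and gave 317 with no filter, 79 with only the groups compared and 54 with total count as a term. The unstimulated comparison (588) ran from 50 to 1041, and gave 1116 with no filter, 1040 with only the groups compared, 64 with total count as a term, 301 by DESeq2 and 751, 33% of them higher, by library size alone. Without replicate 2 of WT at both times it gave 303. Cish ran from −2.16 to −1.99.

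The labels share replicate numbers, but the numbers did not pair CIS KO with WT libraries at 24 h. Within WT, summed Y-linked CPM went with the number. At 24 h and unstimulated it was 14.8 and 19.1 for replicate 1, 124 and 91.1 for replicate 2, 5.96 and 7.54 for replicate 3 and 1.48 and 1.38 for replicate 4. Correlations of same-numbered WT libraries between these conditions ran from −0.40 to 0.10, so pairing within a genotype was not settled. A replicate block called 294, 119 and 438 genes in the 3 comparisons. A block within genotype over 16 libraries, added after seeing the data, called 67 for the response difference. Fits without replicate 2 in both 24 h groups, or in WT at both times, were also added then and gave 297 and 326.

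Over 122 named genes besides Cish, 1003 of 1184 values of called genes under the alternatives kept the call, 181 lost it and 0 changed direction, and 27 genes kept it under every alternative in which they had a value (16 to 19 of them). Of genes not called, 51 of 1117 values gained a call. Gpr183, a homing receptor gene with few counts that was not called, changed sign from 1.13 to −0.20 without CIS KO replicate 2 and to −0.69 without replicate 2 of both groups, and ranged up to 1.88 with 1 library left out.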
